A study of Homo sapiens with 12 samples.

Results

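The genes described here are 59 genes of the mitotic spindle, the kinetochore and cytokinesis, taken by name from the 29696 genes of the expression table, together with every m6A peak of the same genes. The list was set by gene function and holds 11 kinesin motors, 9 centromere proteins, the 4 subunits of the NDC80 complex, 5 checkpoint proteins, the 4 subunits of the chromosomal passenger complex and further kinases, cyclins and spindle proteins, with no threshold on a measured value, although earlier results of these data were known when it was made. All 59 were listed in the table. The minimum for the test, 0.5 FPKM as the average of 6 input libraries, was reached by 53 of them.

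The data came from A375, a human melanoma cell line, infected with a lentivirus carrying a short hairpin RNA against ALKBH5 (shALKBH5) or with a control lentivirus (shCtrl). ALKBH5 is an enzyme that removes the m6A mark, a methyl group on adenosine, from mRNA. The study's methods give 48 h after infection for RNA-Seq cells and no time for MeRIP-Seq, and do not say which applies to these input libraries. The hairpin that the sequenced cells carried was not named. Each group had 3 input libraries of RNA before precipitation and 3 libraries of RNA precipitated with an antibody against m6A (MeRIP-Seq). Nothing in the labels says that the 3 libraries of a group came from separate cultures, so the p-values measure the spread between these libraries. Expression was deposited as FPKM, fragments scaled to transcript length and to all mapped fragments, so levels are per length and the depth of each library is unknown. The m6A data were 1 peak list per group, with no value per library.

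When a cell divides, CDK1 bound to a B-type cyclin starts mitosis, and microtubules growing from the spindle poles attach to kinetochores, the protein plates built on each centromere. The spindle checkpoint holds the anaphase-promoting complex inactive until every kinetochore is attached, after which separase cuts the rings that hold sister chromatids together. Motor proteins, the chromosomal passenger complex and a contractile ring then separate the daughter cells. mRNAs of these proteins are known to accumulate late in the cell cycle. Their promoters are known for 2 elements, a CCAAT box bound by NF-Y and the cell cycle genes homology region (CHR), bound by complexes of MuvB with B-MYB and FOXM1 or with p130 and E2F4.

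The choice of members did not use promoter sequence, and most of them, but not all, held the elements above. RefSeq promoter windows on GRCh38.p14, from 250 bases before to 50 bases after a transcript start, were found for 52 of the 59 members. The CHR sequence TTTGAA was present on either strand in at least 1 window of 35 of 52 members (67.3%), against 18.2% of 27305 genes with a window. A CCAAT box was present in 44 of 52 members (84.6%), against 39.7% of all genes, and both elements in 29 members (55.8%), against 7.26%. On the forward strand only, 15 members held both (28.8%), against 2.21% of genes. Of the CHR variants, TTCGAA was found in 5 members (9.62%, against 1.82% of genes) and TTTAAA in 16 members (30.8%, against 14.5%). In the lists of other genes described below, TTTGAA was present in 7 of 11 other CDK1 control genes with a window (63.6%), in 9 of 26 other kinetochore and centromere genes (34.6%), in 10 of 27 other spindle assembly genes (37.0%) and in 2 of 17 other cytokinesis genes (11.8%). The share was 8 of 17 for cohesin and condensin genes (47.1%), 6 of 14 for regulators of mitotic transcription (42.9%), 5 of 17 for the anaphase-promoting complex (29.4%), 2 of 12 for tubulins (16.7%), 1 of 17 for transport kinesins (5.88%) and 1 of 29 for DNA replication genes (3.45%). A CCAAT box was present in between 23.5% (transport kinesins) and 81.8% (other CDK1 control genes) of each list. The 6 windows below cover the 120 bases just before a transcript start and show a mitotic cyclin, the activator of the anaphase-promoting complex, separase, a chromosome surface protein, and 2 contrasts. The contrasts are CCNB1, which holds CCAAT boxes and the variant TTTAAA, 30 bases before the start and not in capitals, but no TTTGAA in this stretch, and INCENP, the tested member with the smallest fall. Capitals mark TTTGAA and CCAAT read on either strand, so that a box on the opposite strand appears as ATTGG. The windows are CCNB2 at chr15:59105026-59105145, CDC20 at chr1:43358861-43358980, ESPL1 at chr12:53268179-53268298, CCNB1 at chr5:69167030-69167149 and INCENP at chr11:62123891-62124010, all on the plus strand, and MKI67 at chr10:128126424-128126543 on the minus strand.
CCNB2: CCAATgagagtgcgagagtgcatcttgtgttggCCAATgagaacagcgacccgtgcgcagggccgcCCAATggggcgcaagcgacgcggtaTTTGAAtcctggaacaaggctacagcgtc
CDC20: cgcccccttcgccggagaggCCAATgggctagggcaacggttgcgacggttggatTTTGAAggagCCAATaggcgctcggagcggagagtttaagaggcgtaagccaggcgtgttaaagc
ESPL1: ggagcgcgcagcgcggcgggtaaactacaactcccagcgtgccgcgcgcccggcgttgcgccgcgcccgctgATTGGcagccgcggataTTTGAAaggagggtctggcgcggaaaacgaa
MKI67: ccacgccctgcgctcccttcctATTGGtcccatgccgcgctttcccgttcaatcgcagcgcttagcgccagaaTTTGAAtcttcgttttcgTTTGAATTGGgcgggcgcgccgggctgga
CCNB1: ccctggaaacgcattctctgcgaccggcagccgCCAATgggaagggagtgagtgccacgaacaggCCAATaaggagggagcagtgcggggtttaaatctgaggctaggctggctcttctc
INCENP: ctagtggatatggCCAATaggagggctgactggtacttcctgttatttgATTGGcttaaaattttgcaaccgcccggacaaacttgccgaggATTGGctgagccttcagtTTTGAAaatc

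The positions differed between the elements. In CCNB2, TTTGAA began 29 bases before the start and the 3 CCAAT boxes shown began 120, 87 and 54 bases before it. In MKI67, TTTGAA began 47 and 29 bases before the start. Of 52 TTTGAA matches in the member windows, 37 lay within 50 bases of the start. In the plot of elements by distance, TTTGAA was found in 18.2% of the 66 member windows in the bin that ends at the start, against 1.17% of all windows, and CCAAT in 42.4% of member windows in the bin from 75 to 50 bases before the start, against 7.62%. A match is a sequence description and says nothing of binding in these cells.

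**Figure D1:**
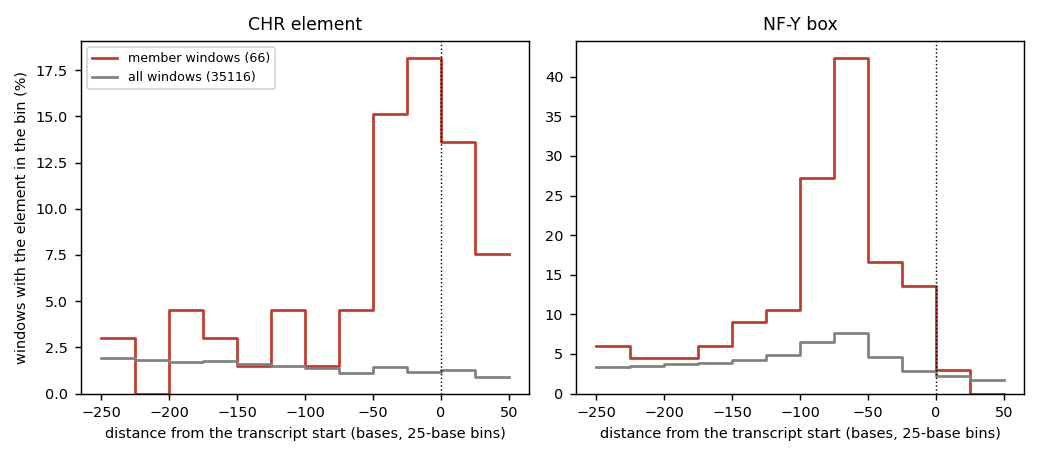
Share of promoter windows (y axis, percent) that hold a CHR element (left) or a CCAAT box, named NF-Y box (right), in each 25-base bin of distance from the transcript start (x axis, bases), for 66 member windows (red) and all 35116 windows (grey). In member windows the CHR element was most frequent in the bin ending at the start, at 18.2%, and the CCAAT box in the bin from 75 to 50 bases before it, at 42.4%.

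The targeted gene was lower in every shALKBH5 library. ALKBH5 was at 3.39, 3.92 and 3.12 FPKM in shALKBH5 and at 19.3, 17.8 and 17.6 FPKM in shCtrl, with a log2 fold change of -2.36 ± 0.0887 (SE, limma adjusted p = 1.28e-06). FPKM summed to between 212760 and 223231 per library, and 10624 to 10946 genes reached 1 FPKM. Of the melanocyte lineage markers (8 of 9 listed), 3 of 4 tested rose (limma), and the list summed to 267 to 271 FPKM in shALKBH5 and 216 to 226 FPKM in shCtrl. S100B (82.1 against 32.9 FPKM), S100A1 (4.43 against 1.86 FPKM) and MITF (1.26 against 0.777 FPKM) rose, but the MITF groups overlapped (adjusted p = 0.0475, and 0.126 without the filter). SOX10 was at means of 181 and 184 FPKM. Of the pigment genes, PMEL (0.611 against 0.237 FPKM) and TYRP1 (0.123 against 0.157 FPKM) were under the filter, TYR and DCT were near 0 and MLANA was not listed. Markers of other cell types summed to 10.7 to 11.6 FPKM in shALKBH5 and 8.90 to 9.57 FPKM in shCtrl for keratinocytes (5 of 7 listed), to 5.57 to 6.76 and 8.79 to 9.75 FPKM for fibroblasts (6 of 6), to 3.75 to 4.24 and 2.33 to 2.64 FPKM for endothelium (4 of 4) and to 4.80 to 5.34 and 0.829 to 1.19 FPKM for immune cells (2 of 5). The part of these markers in the results was not tested. Among them, LYZ (4.82 against 0.874 FPKM), LUM (2.61 against 1.16 FPKM), KDR (3.76 against 2.16 FPKM) and KRT10 (10.8 against 8.17 FPKM) rose, PDGFRB (2.73 against 7.25 FPKM) and KRT14 (0.369 against 0.961 FPKM) fell, and CDH1, PECAM1 and CDH5 averaged no more than 0.0252 FPKM in either group.

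Every mitotic member was lower in shALKBH5 cells. In all 59, each of the 3 shALKBH5 libraries lay below each of the 3 shCtrl libraries, a pattern found in 17.2% of all listed genes and in 29% of the 12985 tested genes. Without a filter on low values, 57 of 59 members were called lower at an adjusted p under 0.05 (limma with Benjamini-Hochberg adjustment over all genes), against 12.2% of all listed genes, and the exceptions were KIF20B and CENPK. Among the 53 members above the filter, 53 were called lower, against 26.2% of tested genes, and none was called higher, against 34.7%. No member had an unadjusted p under 0.05 in the higher direction, since all 59 log2 fold changes were negative. Of the 53, 13 passed the filter through the shCtrl level only, so that a call had to be downward. These 13 were CENPF, CENPI, CENPK, NDC80, NUF2, SPC25, TTK, PLK4, SGO1, ECT2, ASPM, HMMR and CKAP2L. The 40 with a shALKBH5 mean of at least 0.5 FPKM were all called lower with a median log2 fold change of -1.68. A log2 fold change below -1 was reached by 48 members, against 6.29% of tested genes. In bulk RNA, fewer cells in mitosis and less mRNA in each cell cannot be told apart.

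The median log2 fold change of the 53 members was -1.69, beside 0.09 for all tested genes, and the median member stood at 28.7% of its shCtrl level. More negative values than the member median were found in 1.92% of tested genes. The quartiles were -1.97 and -1.41, and the range ran from -2.49 for ECT2 to -0.49 for INCENP. Summed over the 59 members, expression was 257 to 268 FPKM in the shALKBH5 libraries and 775 to 798 FPKM in the shCtrl libraries, or 0.115% to 0.121% against 0.356% to 0.370% of all FPKM. The sums did not overlap, and the 3 values within a group lay close together. The 20 members at 10 FPKM or more in shCtrl changed by a median of -1.80 on the log2 scale, and the 33 tested members below it by -1.67, and with a pseudocount of 1 in place of 0.1 these were -1.59 and -1.06. Members at 10 FPKM or more numbered 20 in shCtrl and 7 in shALKBH5, and members under 1 FPKM numbered 9 and 24. Between libraries of a group the median coefficient of variation was 11.8% in shALKBH5 and 11.7% in shCtrl. shCtrl replicate 2 was the highest of its group in 41 members, and shALKBH5 replicate 1 in 35.

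**Figure D2:**
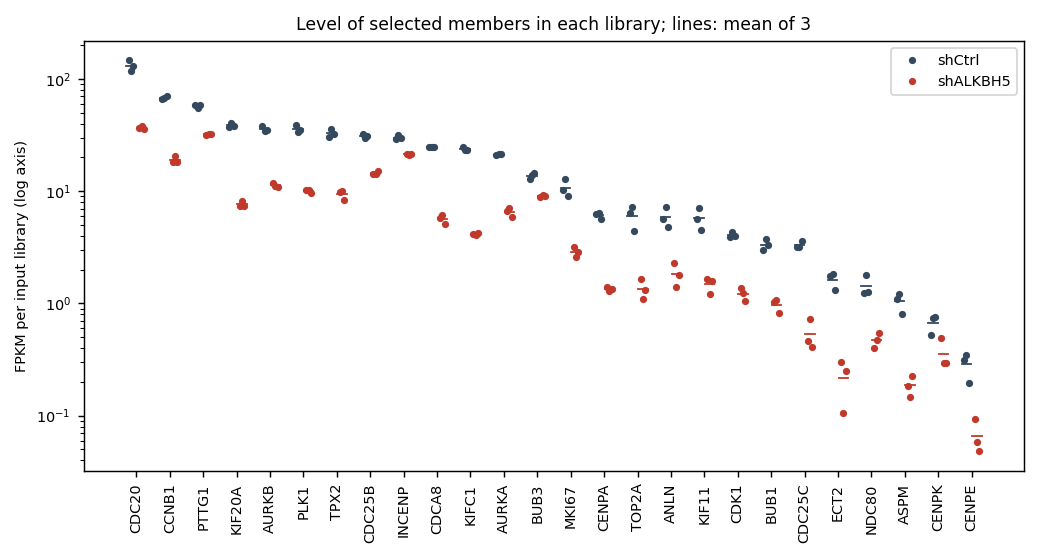
FPKM in each of the 6 input libraries (y axis, log scale) for 26 members (x axis, ordered by shCtrl mean), with shCtrl in dark blue, shALKBH5 in red and a line at each mean of 3. In each gene the red points lie below the dark blue points, from CDC20 at 35.9 to 38.0 against 117 to 147 FPKM down to CENPE at 0.0481 to 0.0930 against 0.194 to 0.347 FPKM.

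All 6 members that start mitosis and control CDK1 fell (against 26.2% of all tested genes), with a median log2 fold change of -1.81. CCNB1 encodes cyclin B1, the activating subunit of CDK1, and was at 18.2, 20.6 and 18.3 FPKM in shALKBH5 and 66.4, 67.3 and 70.4 FPKM in shCtrl. CDK1, the kinase itself, was at 1.38, 1.25 and 1.05 FPKM against 3.95, 4.34 and 3.99 FPKM. Cyclin and kinase therefore stood at similar shares of their shCtrl levels, 28.0% and 29.9%. CDC25C, a phosphatase that activates CDK1, was at 0.464, 0.724 and 0.411 FPKM in shALKBH5 and 3.17, 3.20 and 3.57 FPKM in shCtrl, the steepest fall of the group (-2.46 ± 0.183). CDC25B, a related phosphatase, was at 14.3, 14.4 and 15.1 FPKM against 32.6, 29.7 and 30.9 FPKM and fell least (-1.08 ± 0.0499). The 2 phosphatase genes thus marked both ends of the group, with no overlap between shALKBH5 and shCtrl in either. Cyclin B2 (CCNB2, -1.83) and cyclin A2 (CCNA2, -1.80) lay close to CCNB1 (-1.83).

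The polo-like, Aurora A and NEK kinases with TPX2, 5 members in all, fell by between 1.32 and 1.81. PLK1, a kinase needed for spindle poles, kinetochores and cytokinesis, was at 10.3, 10.3 and 9.72 FPKM in shALKBH5 and 38.9, 33.4 and 34.9 FPKM in shCtrl (-1.81 ± 0.0637). AURKA, the spindle pole kinase, was at 6.69, 7.01 and 5.89 FPKM against 20.8, 21.4 and 21.3 FPKM (-1.69 ± 0.0689). TPX2, which binds and activates Aurora A, fell by 1.79, close to its partner. PLK4, the kinase that starts centriole duplication, was lower in level, at 0.257, 0.182 and 0.326 FPKM against 0.804, 0.990 and 0.572 FPKM, and fell least (-1.32 ± 0.255). NEK2, a centrosome kinase, fell by 1.60.

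The chromosomal passenger complex, a kinase with 3 partners, corrects attachments at the centromere and later marks the cleavage plane. AURKB, the kinase, was at 11.7, 11.0 and 10.9 FPKM in shALKBH5 and 38.2, 34.1 and 35.5 FPKM in shCtrl (-1.67 ± 0.0558). CDCA8 (borealin) was at 5.76, 6.15 and 5.09 FPKM against 24.6, 24.8 and 24.9 FPKM (-2.11 ± 0.0707). INCENP, the scaffold of the complex, was at 21.6, 21.2 and 21.6 FPKM against 29.1, 31.4 and 29.7 FPKM, the smallest fall of all tested members (-0.49 ± 0.0428, limma adjusted p = 5.88e-05). The subunits of 1 complex therefore fell unequally, to 22.9% of shCtrl for CDCA8 and to 71.3% for INCENP. BIRC5 (survivin) fell by 1.98.

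Of the 9 centromere proteins, 8 were tested and 8 fell (against 26.2% of all tested genes). CENPF, CENPI and CENPK passed the filter through shCtrl only, so that their calls had to be downward. CENPA, the histone variant that marks the centromere, was at 1.39, 1.29 and 1.34 FPKM in shALKBH5 and 6.23, 6.39 and 5.69 FPKM in shCtrl (-2.11 ± 0.0748). CENPF, an outer kinetochore protein, was at 0.460, 0.232 and 0.343 FPKM against 2.04, 2.31 and 1.34 FPKM (-2.16 ± 0.258). CENPK, a subunit of the constitutive centromere network, was at 0.488, 0.292 and 0.292 FPKM against 0.528, 0.735 and 0.750 FPKM (-0.77 ± 0.237, limma adjusted p = 0.0249). The CENPK groups nearly touched, and its call was lost without a filter (adjusted p = 0.0629) and without shALKBH5 replicate 2 (0.0717) or 3 (0.0766). CENPI (-2.07) and CENPU (-1.85), from the same network, fell more than CENPM (-1.22), CENPH (-1.04) and CENPN (-0.83). CENPE, the kinetochore motor, was under the filter at 0.0930, 0.0580 and 0.0481 FPKM against 0.316, 0.347 and 0.194 FPKM.

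NDC80, NUF2, SPC24 and SPC25 form the rod that binds microtubules at the outer kinetochore, and all 4 fell (against 26.2% of all tested genes). NDC80, NUF2 and SPC25 passed the filter through shCtrl only, so that their calls had to be downward. SPC25 was at 0.344, 0.387 and 0.489 FPKM in shALKBH5 and 2.24, 2.04 and 2.03 FPKM in shCtrl (-2.13 ± 0.142). NDC80 was at 0.402, 0.468 and 0.542 FPKM against 1.24, 1.79 and 1.26 FPKM (-1.41 ± 0.182). NUF2 (-1.97) lay nearer to SPC25, and SPC24 (-1.46) nearer to NDC80. BUB1, a checkpoint kinase, was at 1.04, 1.08 and 0.818 FPKM against 3.02, 3.72 and 3.30 FPKM (-1.68 ± 0.129). BUB3, its binding partner, was at 8.90, 9.25 and 9.01 FPKM against 12.8, 13.9 and 14.5 FPKM and fell least of the checkpoint genes (-0.60 ± 0.0575, limma adjusted p = 9.19e-05). BUB1B (-1.53), TTK (-1.41) and MAD2L1 (-1.09), which encode the checkpoint proteins BubR1, MPS1 and MAD2, lay between them.

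Among the genes of anaphase onset, CDC20, which activates the anaphase-promoting complex and was the member with the highest level, fell by 1.83. Its values were 36.2, 38.0 and 35.9 FPKM in shALKBH5 and 147, 117 and 129 FPKM in shCtrl. A processed copy, CDC20P1, was listed at 0.890 to 1.09 FPKM against 3.06 to 3.56 FPKM. Fragments shared between the copies were not measured, so their effect on the value of CDC20 is unknown. ESPL1, which encodes separase, was at 1.66, 1.63 and 1.85 FPKM against 7.58, 6.78 and 6.85 FPKM (-1.98 ± 0.0788). PTTG1, which encodes securin, the inhibitor of separase, was at 31.8, 32.2 and 32.5 FPKM against 58.3, 55.1 and 58.7 FPKM (-0.83 ± 0.0392). Separase and its inhibitor therefore stood at 24.2% and 56.1% of their shCtrl levels. The shugoshin SGO1, which protects centromeric cohesion, fell by 1.53, and SGO2 was under the filter at means of 0.0684 and 0.313 FPKM.

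Of the 11 mitotic kinesins, 7 were tested and 7 fell (against 26.2% of all tested genes), with a median of -1.84. KIFC1, a minus-end motor that clusters spindle poles, was at 4.19, 4.09 and 4.23 FPKM in shALKBH5 and 24.6, 23.4 and 23.1 FPKM in shCtrl (-2.48 ± 0.0475, limma adjusted p = 1.63e-07). KIF20A, a motor of the central spindle, was at 7.37, 8.13 and 7.36 FPKM against 37.0, 40.1 and 38.5 FPKM (-2.32 ± 0.0568). Both stood under 20% of their shCtrl level. KIF11, the motor that pushes the poles apart, was at 1.65, 1.21 and 1.58 FPKM against 5.62, 7.06 and 4.48 FPKM (-1.87 ± 0.179). KIF23, a subunit of the centralspindlin complex, was at 1.13, 1.04 and 0.887 FPKM against 2.52, 2.95 and 2.27 FPKM and fell least (-1.26 ± 0.131). The chromosome-arm motors KIF4A (-1.84) and KIF22 (-1.58) and the microtubule depolymerase KIF2C (-1.40) lay between them. KIF14, KIF15, KIF18A and KIF20B were under the filter, with shCtrl means of 0.550, 0.665, 0.511 and 0.449 FPKM and shALKBH5 means of 0.0769, 0.129, 0.153 and 0.255 FPKM.

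All members of the cytokinesis and spindle groups fell (against 26.2% of all tested genes). ASPM, HMMR, CKAP2L and ECT2 passed the filter through shCtrl only, so that their calls had to be downward. ECT2, which activates RhoA at the cleavage furrow, was at 0.299, 0.105 and 0.248 FPKM in shALKBH5 and 1.76, 1.82 and 1.31 FPKM in shCtrl, with the most negative fold change of the tested members (-2.49 ± 0.277, limma adjusted p = 0.000189). Its order against KIFC1 (-2.48 ± 0.0475) was within its error and turned with a pseudocount of 1 (-1.11 against -2.26). ANLN, the ring scaffold anillin, was at 2.27, 1.39 and 1.78 FPKM against 5.68, 7.22 and 4.80 FPKM (-1.65 ± 0.199). PRC1, which bundles the microtubules of the central spindle, was at 5.08, 5.31 and 4.54 FPKM against 9.35, 12.2 and 10.8 FPKM (-1.09 ± 0.106). The 3 cytokinesis genes thus spread widely, although in none did the groups overlap. TOP2A, the topoisomerase that untangles sister chromatids, was at 1.66, 1.10 and 1.31 FPKM against 6.40, 7.18 and 4.46 FPKM (-2.06 ± 0.201). MKI67, which encodes the Ki-67 protein that coats mitotic chromosomes, was at 3.18, 2.57 and 2.87 FPKM against 10.3, 12.9 and 9.06 FPKM (-1.86 ± 0.136). ASPM, a spindle pole protein, was at 0.183, 0.148 and 0.227 FPKM against 1.09, 1.22 and 0.813 FPKM (-1.99 ± 0.216). These 3 genes ended between 17.8% and 26.7% of their shCtrl level. HMMR, a spindle pole protein, was at 0.343, 0.289 and 0.276 FPKM against 1.02, 1.45 and 0.831 FPKM (-1.55 ± 0.218). NUSAP1 (-1.90), CKAP2L (-1.74) and DLGAP5 (-1.61), which encode microtubule binding proteins, lay between TOP2A and HMMR.

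**Figure D3:**
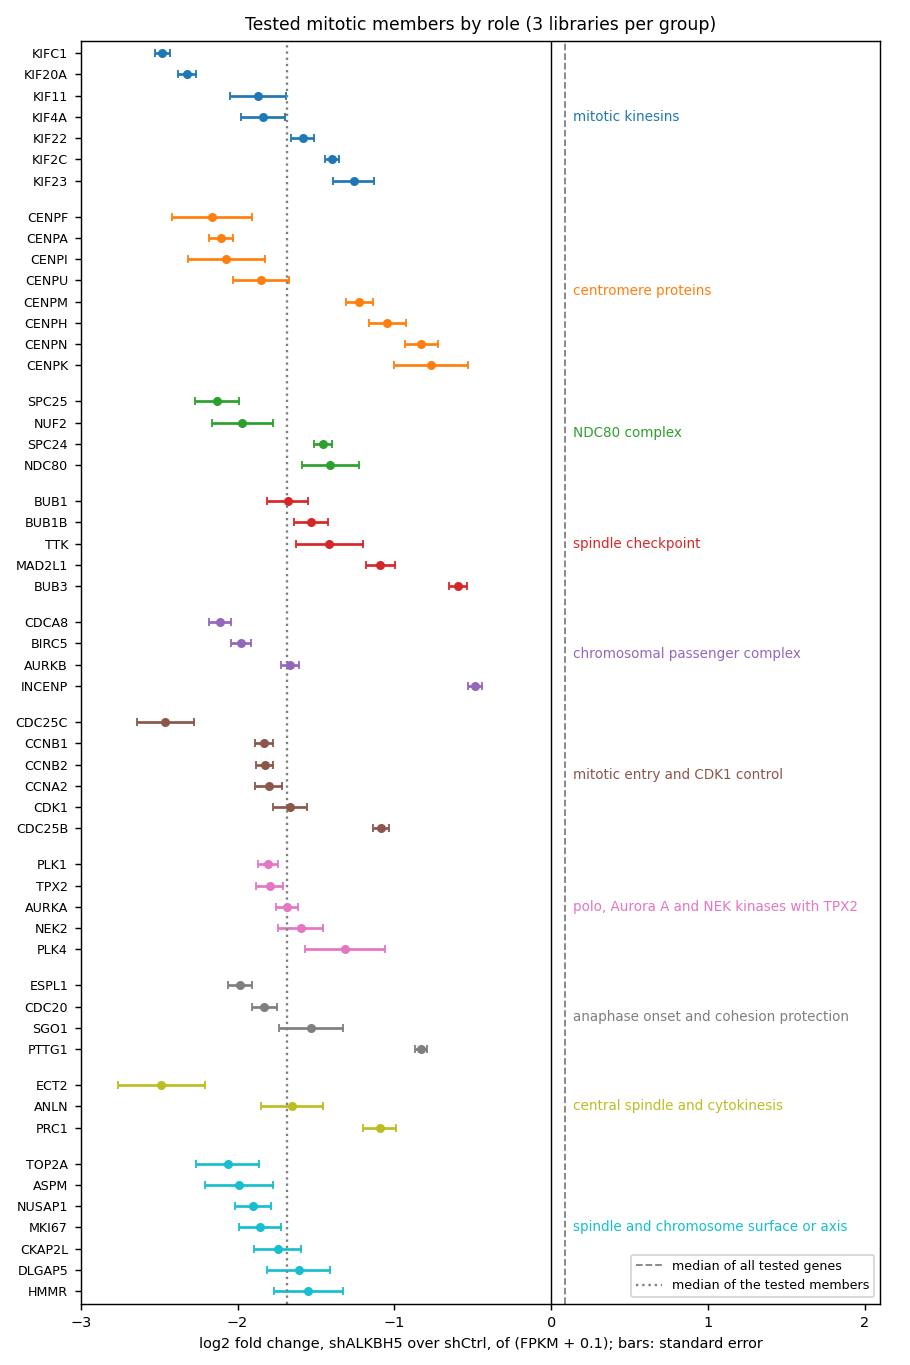
Log2 fold change of (FPKM + 0.1), shALKBH5 over shCtrl (x axis), with its standard error, for the 53 tested members (y axis), coloured by role. All lie below 0, from -2.49 for ECT2 to -0.49 for INCENP, and the lines give the median of the tested members (-1.69) and of all tested genes (0.09).

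The lists of other genes of these pathways had medians closer to 0 than the members. Their counts stand beside 26.2% of all tested genes called lower and 34.7% called higher. Of 26 tested genes of the other kinetochore and centromere list, 19 fell and 1 rose, with a median of -0.74. HJURP, the chaperone that loads CENPA, fell most (-2.40), and MAD2L1BP, a protein that opposes the checkpoint, rose most (0.38). Of 27 other spindle assembly genes, 17 fell and 1 rose, with a median of -0.45. They ran from GTSE1 at -2.45 to CLASP1, a microtubule plus-end protein, at 0.46, and the motor KIF18B fell by 1.64. Of 19 other cytokinesis genes, 9 fell and 4 rose, of which 2 rose after rescaling by the median ratio. CEP55, a midbody protein, fell most (-2.17). PDCD6IP, a protein of abscission, rose most (0.30), and its call was lost without a filter and in 3 of the fits that left out a library (adjusted p from 0.0551 to 0.0686).

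Among 18 subunits and partners of the anaphase-promoting complex, 9 fell and 4 rose, with a median of -0.11. UBE2C, the ubiquitin-conjugating enzyme of the complex, was at 16.4, 17.4 and 17.4 FPKM in shALKBH5 and 81.5, 67.2 and 68.9 FPKM in shCtrl (-2.08), whereas the core subunit CDC26 rose (0.49). Of 14 other CDK1 control genes, 9 fell and none was called higher (limma, 0 also at an unadjusted p under 0.05), against 34.7% of all tested genes. They ran from the phosphatase CDKN3 at -2.33 to PPP2R2A at 0.21, which did not pass the test. All 10 tested tubulins fell, from TUBA1B at -1.12 to TUBB3 at -0.39, a smaller range than that of the members.

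Regulators of mitotic transcription were called in both directions. FOXM1, the forkhead factor of late cell cycle genes, was at 9.69, 9.71 and 9.47 FPKM in shALKBH5 and 48.3, 44.7 and 44.0 FPKM in shCtrl (-2.23 ± 0.0481, limma adjusted p = 2.26e-07). MYBL2, which encodes B-MYB, was at 12.2, 11.4 and 12.0 FPKM against 48.1, 43.5 and 43.7 FPKM (-1.92 ± 0.0546). Both ended well below their shCtrl libraries. E2F4, a repressor E2F, was at 45.8, 44.3 and 46.3 FPKM against 30.9, 29.3 and 30.3 FPKM (0.59 ± 0.0392). CDKN1A, which encodes the CDK inhibitor p21, was at 275, 282 and 280 FPKM against 244, 210 and 227 FPKM (0.30 ± 0.0545). In the list of 15 tested regulators, 9 fell (26.2% of all tested genes did) and 4 rose (34.7%), with a median of -0.30.

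Gene families alike in name or in phase gave other counts. Of 20 tested transport kinesins, 8 fell (against 26.2% of all tested genes) and 3 rose (against 34.7%), with a median of -0.19, and after rescaling by the median ratio 1 rose. KIF3C fell most (-1.53) and the light chain KLC2 rose most (1.15). KIF5B, the heavy chain of conventional kinesin, fell by 0.56, but the call was lost without a filter, without the variance trend and in 4 of the fits that left out a library, with adjusted p from 0.0589 to 0.109. KIF13A had a log2 fold change of -0.18 that did not pass the test (adjusted p = 0.251), and -0.32 without shCtrl replicate 1 (0.0164). Of 32 DNA replication genes, 31 fell and 1 rose, with a median of -1.22. CDC45 of the replicative helicase fell most (-2.36), and GINS3, the gene that rose (0.41), lost its call without shALKBH5 replicate 1 (adjusted p = 0.0560). Of 20 tested cohesin and condensin genes, 12 fell and 1 rose, with a median of -0.72, from NCAPG at -2.04 to MAU2 at 0.31. No test between lists was made.

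**Figure D4:**
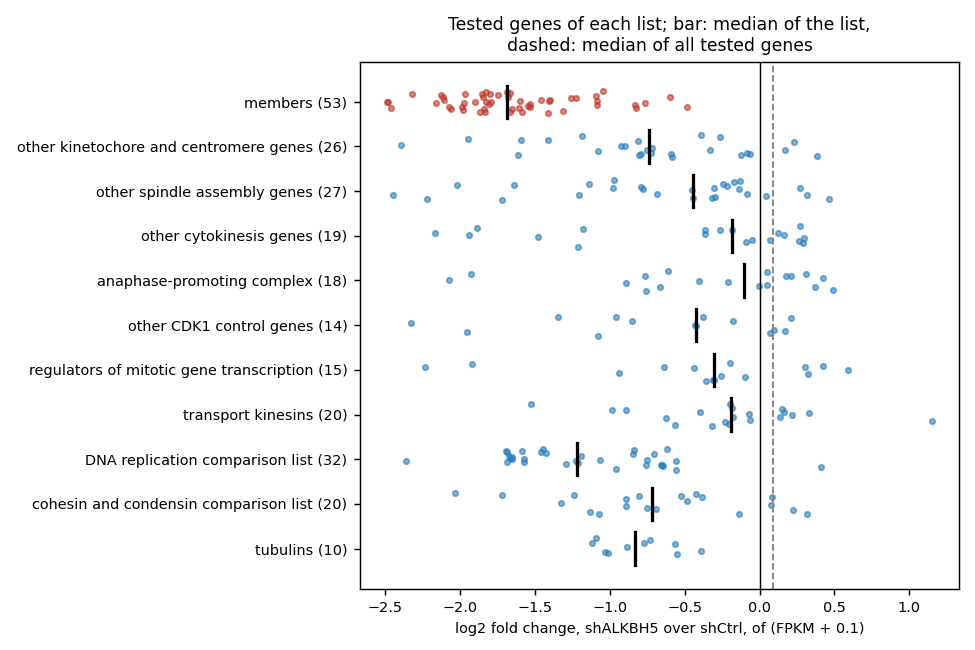
Log2 fold change of (FPKM + 0.1), shALKBH5 over shCtrl (x axis), of every tested gene in each list (y axis, number of genes in parentheses), with a bar at each list median and a dashed line at the median of all tested genes (0.09). The member median is -1.69, and the other medians run from -1.22 for DNA replication to -0.11 for the anaphase-promoting complex.

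The m6A peak lists asked whether the members carried the mark and whether its enrichment differed between the groups. In these lists the fold enrichment is the IP signal over the input signal of a peak. A peak was listed in 49 of 59 members in shALKBH5, against 86% of tested genes, and in 50 of 59 in shCtrl, against 85.5%. The members held 137 and 134 peaks. Member counts of peaks here and below include the 6 members under the filter, whereas the tested genes leave such genes out. No peak was listed in either group for KIF2C, BUB3, MAD2L1, AURKB, CCNA2, CCNB1, CCNB2, CDK1 and PRC1, and PLK1 had a peak in shCtrl only. With peaks limited to a fold of 2 or more and an FDR no higher than 0.01, 43 and 45 of 59 members held a peak. The tested genes with such a peak numbered 10177 in shALKBH5 and 10119 in shCtrl, of 12985.

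Coding exons held a larger share of member peaks than of the peaks of all tested genes. The share was 43.8% of the shALKBH5 member peaks (95% Wilson interval 35.8% to 52.2%, which covers counting error only) and 44.0% of the shCtrl ones, against 13.2% and 13.1% of the peaks of all tested genes. The 3′ UTR held 37.2% and 34.3%, against 53.0% and 52.8%. The member shares include peaks of members under the filter, such as CENPE, KIF14, KIF20B and SGO2, which the tested genes leave out. A few genes carried many of the peaks, with 13 and 7 in CENPF, 5 and 13 in CENPE, and 9 and 9 in ASPM for shALKBH5 and shCtrl. Without genes of 5 or more peaks, the coding exon share of the members was 29.9% and 28.0%, against 10.9% and 10.9%. An FDR above 0.05 was carried by 27 of 137 shALKBH5 member peaks (19.7%) and 18 of 134 shCtrl ones (13.4%), against 9.79% and 8.75% in tested genes.

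The enrichment of overlapping member peaks differed between the groups in both directions. The positions fitted the GRCh38.p14 gene of the same name for all 59 members, although the labels name a mouse build. In the 3′ UTR of AURKA, the peak at chr20:56369777-56370494 had a fold enrichment of 3.81 in shALKBH5, and the overlapping shCtrl peak 3.93. In the 3′ UTR of CDC25B the values were 3.27 and 3.03, and in that of CDC20 1.86 and 1.87. The 5′ UTR peak of PTTG1 gave 4.29 and 4.25. Larger differences were found in both directions. A 3′ UTR peak of KIF4A had 2.36 in shALKBH5 (270 bases) and 4.70 in the longer overlapping shCtrl peak (569 bases). Peaks annotated to the 3′ UTR had 17.6 and 10.0 in MKI67, 15.9 and 7.02 in SGO1, and 6.12 and 2.77 in CDC25C. Of 108 pairs in 47 members, 58 were higher (53.7%, against 42.9% of 25215 pairs of tested genes) and 50 lower in shALKBH5, and the median log2 ratio was 0.04, beside -0.06. The 2 sets differed in level, since 62 of the member pairs but 707 of the tested ones came from genes under 0.5 FPKM in shALKBH5. They also differed in make-up, since the 62 include pairs of the 6 members under the filter, and the tested set holds no such genes. Among pairs under 0.5 FPKM, 53.2% of member pairs and 51.8% of tested pairs were higher, with medians of 0.11 and 0.04. From 0.5 to 2 FPKM (17 member pairs) the shares were 58.8% and 43.8%. From 2 to 10 FPKM (24 member pairs) they were 50% and 44.3%, and at 10 FPKM or more (5 member pairs) 60% and 39.0%. The sign of the member median turned with a reciprocal overlap of 50%, under which 19 of 41 pairs were higher and the median was -0.04, beside -0.05. It was 0.05 with stricter peaks (42 of 74 higher, beside -0.06), 0.11 for the highest peak of each gene (beside -0.04), and 0.01 without the 5 genes of 5 or more pairs. The 108 pairs drew on 82 shCtrl peaks, so they are not independent. The interquartile range of the log2 ratio was 1.43 over the 62 pairs whose gene averaged under 0.5 FPKM in shALKBH5 and 0.63 over the 29 pairs at 2 FPKM or more. Without replicate values no error or test can be given for these ratios. The table in which the authors compared peaks between the groups listed 14 peaks in 12 members (20.3%), against 32.7% of tested genes. In 9 of the 14 both lists held an overlapping peak, with the shALKBH5 fold higher in 5 and lower in 4.

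**Figure D5:**
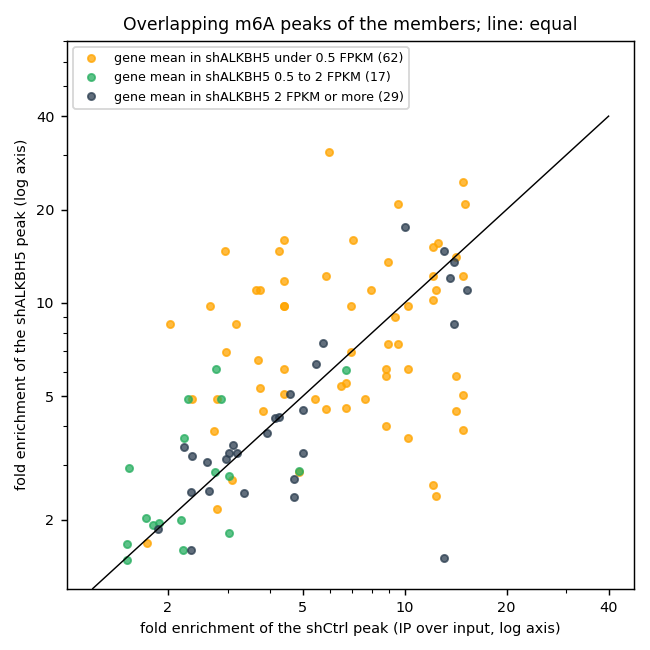
Fold enrichment of the 108 shALKBH5 member peaks (y axis, log scale) against that of the overlapping shCtrl peak (x axis, log scale), coloured by the mean FPKM of the gene in shALKBH5, with a line at equal values. Points of genes at 2 FPKM or more lie mostly near the line, those of the 62 pairs under 0.5 FPKM spread widely, and 58 of all points lie above it.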

How the data were processed

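The authors deposited expression as FPKM for 6 input libraries. For m6A they gave each group 1 list of peaks, in which the deposited columns are a fold enrichment (IP over input) and a log10 FDR, used here as a score, and a table of compared peaks. The aligner and counter are not given in the sources used here. The labels name mm10, which the human gene positions do not match. The fold changes and p-values that the authors computed were not used, and the test named in the methods needs counts.

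Genes that averaged 0.5 FPKM or more (12985 of 29696) were fitted with limma 3.58.1 in R 4.3.3 by lmFit and eBayes (trend = TRUE) on log2(FPKM + 0.1). Tests were two-sided and adjusted by Benjamini-Hochberg over all fitted genes. Fold changes are on this scale, which understates those of low genes. An exact permutation test of 3 against 3 libraries cannot go below p = 0.1. The fit was first tested on simulated data. Without counts the depth is unknown, and the number of libraries limits the precision. No 2 libraries shared more than 0.123% of values. Peaks were paired by an overlap of 1 base or more on the same gene and strand, with starts counted from 1. Promoter motifs were searched on both strands with overlaps allowed, and the windows printed were chosen after their matches were seen. m6A motifs in peaks were not analysed here. Other steps used Python 3.11.15, pandas 2.3.3 and scipy 1.17.1.

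The members and lists were chosen with earlier results of these data known. By the rule for named genes, values per library are given for ALKBH5, for the members with the largest and smallest change in each role group and for 17 fixed members. The largest changes in each direction of the other lists are named, with 7 fixed genes. Alternatives were other pseudocounts (1, 0.01), other filters (none, 1 FPKM), libraries rescaled by median ratio, a replicate block, eBayes with no trend, the omission of single libraries, stricter peaks, 50% reciprocal overlap, the highest peak per gene and motifs on the forward strand.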

Additional observations from a re-analysis of the deposited data

How the results depend on the processing

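All 53 tested members kept a negative log2 fold change in every alternative run, and 52 of them kept their call wherever they were fitted; CENPK lost its call in 4. The count of members called lower was 57 without the filter and 43 with a filter at 1 FPKM, where fewer genes were tested. With a pseudocount of 1 the member median was -1.14 in place of -1.69, because a larger pseudocount shrinks the change of low genes. Rescaling by the median ratio gave -1.76, beside 0.01 for all tested genes. The count of other listed genes called higher was 19, and ran from 12 (without shALKBH5 replicate 1 or 2) to 25 (without shCtrl replicate 2) when 1 library was left out. On the forward strand only, 23 members held a CCAAT box in place of 44 (23.3% of all genes in place of 39.7%), and 15 held both elements in place of 29.

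Deviations of libraries with the same replicate number correlated between -0.05 and 0.06. These values show no pairing by number, but with 3 libraries per group they cannot exclude it. With the replicate number as a block, 52 members were called lower, CENPK being lost (adjusted p = 0.0602), the ALKBH5 log2 fold change was again -2.36, and 5 transport kinesins were called lower and 1 higher. The search for m6A motifs in peaks was not run. Depth is unknown, and for members under 0.5 FPKM both levels and peak folds rest on few fragments that cannot be counted here.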

Other observations

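Members fell whether or not a CHR sequence was found, and no test between them was made. The 31 tested members with TTTGAA in a promoter window had log2 fold changes from -2.49 to -0.49 with a median of -1.83, and the 15 tested members with a window but no TTTGAA ran from -2.32 to -0.77 with a median of -1.60. Of these 15, 8 held a CHR variant (TTCGAA or TTTAAA), with a median of -1.56, and 7 held no form, with a median of -1.67. Across the 53 tested members the Spearman correlation of the log2 fold change was 0.01 with the shCtrl level and -0.28 with the span of the gene, given as a description of genes measured in the same libraries.

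In the shALKBH5 peak list, 3 fold values, 7.35, 8.57 and 9.80, were the commonest. They were held by 13.9% of member peaks and by 6.56% of the peaks of tested genes. In the shCtrl list the 3 commonest values were held by 5.97% and 6.31%.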
